A study of Mus musculus with 7 samples.

Results

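Lipid-anchored proteins of the photoreceptor outer segment are handled by a small set of dedicated carriers, and 8 genes of this set were examined among the 52550 genes of the deposited count table. The 8 were listed by their known roles and matched by symbol: the acyl and prenyl carriers *Unc119*, *Unc119b* and *Pde6d*, the GTPase that unloads them and its regulator (*Arl3* and *Rp2*), the chaperones *Aipl1* and *Rd3*, and the GTPase *Rab28*. All 8 were found in the table, and all 8 passed the filter on low counts, which kept 20128 genes.

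The data are total RNA-seq libraries of mouse retina, depleted of ribosomal RNA, from a knock-in model of spinocerebellar ataxia type 7 (SCA7), a polyglutamine disease in which the retina degenerates. WT mice (n = 4) were compared with mice homozygous for the SCA7 140Q knock-in (n = 3, SCA7 hereafter), which carry the expanded CAG repeat in both copies of *Atxn7* under its own promoter, so that every cell that uses *Atxn7* makes the mutant protein and no normal copy is left. All mice were of strain C57BL/6J and 12.5 weeks old, and each library held both retinas of 1 mouse. Libraries had a median of 67140118 counts (56497675 to 96635832), and the members held from 1978 counts (*Unc119b*) to 128775 counts (*Unc119*) in a library.

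Photoreceptors make their phototransduction proteins in the inner segment and must move them through the connecting cilium. Many of these proteins carry a fatty acyl or a prenyl group that would hold them on any membrane they meet, and a soluble carrier buries the lipid in a hydrophobic pocket during transit. UNC119 and UNC119B hold N-terminal acyl groups such as that of the transducin alpha subunit, and PDE6D holds farnesyl and geranylgeranyl groups such as those of the PDE6 phosphodiesterase and of the photoreceptor kinase GRK1. ARL3 loaded with GTP binds the carriers in the cilium and makes them let go of the cargo. RP2 is the GTPase-activating protein that switches it off. AIPL1 is a chaperone needed to assemble PDE6, RD3 binds the retinal guanylate cyclases and is needed for their delivery, and RAB28 is a farnesylated GTPase that PDE6D binds. Several of these genes are known causes of inherited blindness.

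Between genotypes, 3 of the 8 members changed at an adjusted p under 0.05 (edgeR quasi-likelihood test, Benjamini-Hochberg over all genes tested). *Unc119* and *Arl3* fell, *Unc119b* rose, and the other 5 did not pass the test. The background was high in this comparison: of all genes tested, 14.2% were lower (2852 genes) and 14.2% were higher (2853 genes) at the same threshold. With the fold change limits added (FC, SCA7 over WT, under 0.7 or over 1.3), 1 member, *Unc119*, was downregulated and 0 were upregulated, beside 7.91% and 7.47% of all genes tested. The median log2 fold change was -0.19 over the members and -0.02 over all genes tested. All 8 members are protein-coding, and over the 15422 protein-coding genes tested the median was 0.02. Of those 15422 genes, 2093 were lower and 2701 higher, and 946 were downregulated and 1358 upregulated. All values below that are called lower or higher are relative to TMM scaling (edgeR's trimmed mean of M-values). With library totals in place of TMM, the median of all genes moved by 0.19 on the log2 scale, and 1495 genes were lower and 7296 higher.

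RefSeq promoter windows (GRCm38.p6, the 250 bases before an annotated start) were read for all 8 members, in 11 windows since *Unc119* has 3 and *Rd3* has 2. The windows of the 3 members that changed (for *Unc119* the one farthest upstream) and that of *Aipl1* are shown 5′ to 3′ on the strand of the gene, to set what the changed genes hold before their start beside a member with a match to the photoreceptor motif. Capitals mark matches on either strand to 3 short motifs: TAATCC (the core bound by CRX and OTX factors, the former a master regulator of photoreceptor genes), TGCTGAC (the core bound by NRL and other MAF factors) and GGGCGG (the GC box).

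Unc119, chr11:78343245-78343494, plus strand: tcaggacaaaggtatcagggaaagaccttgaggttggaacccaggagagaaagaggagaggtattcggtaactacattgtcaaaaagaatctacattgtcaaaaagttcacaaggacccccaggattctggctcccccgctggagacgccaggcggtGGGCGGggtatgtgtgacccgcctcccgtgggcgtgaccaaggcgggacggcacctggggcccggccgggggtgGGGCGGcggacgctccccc

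Arl3, chr19:46573183-46573432, minus strand: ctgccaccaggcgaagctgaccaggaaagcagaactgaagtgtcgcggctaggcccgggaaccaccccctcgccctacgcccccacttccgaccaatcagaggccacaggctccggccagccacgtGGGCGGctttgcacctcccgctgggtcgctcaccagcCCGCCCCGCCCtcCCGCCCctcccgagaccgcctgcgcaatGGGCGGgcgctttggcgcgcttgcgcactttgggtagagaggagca

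Unc119b, chr5:115134976-115135225, minus strand: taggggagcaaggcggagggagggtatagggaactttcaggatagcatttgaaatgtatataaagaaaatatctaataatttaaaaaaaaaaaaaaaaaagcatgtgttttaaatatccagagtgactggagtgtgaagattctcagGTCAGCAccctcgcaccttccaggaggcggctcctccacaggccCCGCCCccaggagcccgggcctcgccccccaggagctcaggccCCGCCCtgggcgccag

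Aipl1, chr11:72037510-72037759, minus strand: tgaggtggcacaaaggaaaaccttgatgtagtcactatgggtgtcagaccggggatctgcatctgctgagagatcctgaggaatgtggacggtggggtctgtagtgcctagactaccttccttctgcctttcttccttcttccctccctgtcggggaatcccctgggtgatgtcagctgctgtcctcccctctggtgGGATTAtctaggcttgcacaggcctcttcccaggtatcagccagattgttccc

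The GC box was in 4 of the 11 windows, 1 each of the 3 members that changed and *Rab28*, and in 32.7% of all 32817 windows of that length. *Arl3* held 5 copies, 2 of them sharing a base, in a window of 70.0% G and C, where the median of all windows was 52.4%. Of the 4 windows with a GC box, only that of *Unc119b* ends at a start where a GENCODE transcript opens. For *Rab28* the bases after the start are in no GENCODE transcript of the gene. TAATCC was found in 2 of the 11 windows and in 6.3% of all windows: once in *Aipl1*, 53 bases before its start, and once in *Unc119*, in its second window (chr11:78345334-78345583), 118 bases before a start inside the gene at which no GENCODE transcript opens and whose following bases are in none. TGCTGAC was found in 1 of the 11 windows, that of *Unc119b*, on the strand opposite to the gene, and in 3.8% of all windows. Of the cargo and client genes described further on, 9 had a window, and TAATCC was present in 5 of them (*Gnat2*, *Gngt1*, *Guca1a*, *Gucy2e* and *Gucy2f*), TGCTGAC in 1 (*Pde6b*) and the GC box in 2 (*Gucy2e* and *Inpp5e*). These are matches of letters and were not tested as binding sites.

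The 8 members differed widely in level. On the RPK scale, in which counts are divided by DESeq2's size factor and then by the kb length of the gene's median transcript, the WT mean of *Unc119* was 132257 ± 10794 RPK (SD, n = 4), higher than 99.9% of the 15422 protein-coding genes tested. *Aipl1* followed at 23265 ± 1161 RPK and *Arl3* at 10798 ± 336 RPK. Next in order were *Rd3* (8377 ± 788 RPK), *Rab28* (7154 ± 606 RPK) and *Pde6d* (3912 ± 591 RPK). The lowest levels were those of *Unc119b* (2090 ± 20.9 RPK) and *Rp2* (1479 ± 134 RPK), which still lay above 69.3% and 62.1% of the protein-coding genes, whose median was 826 RPK. No neighbours in this order had overlapping ranges over the 4 WT libraries. With the union of exons as length the order of the means was the same, and the level of *Unc119* was 50407 RPK. With that length, however, the ranges of *Arl3* and *Rd3* overlapped, and so did those of *Rab28* and *Pde6d*.

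*Unc119* accounted for 69.8% of the RPK summed over the 8 members in WT and for 54.6% in SCA7, as means over libraries. The share of *Unc119* in the sum of the 2 acyl carriers was 98.4% ± 0.135 (SD, n = 4) in WT and 96.0% ± 0.396 (SD, n = 3) in SCA7. Transcripts of *Unc119b* were therefore a small part of this pair in both genotypes.

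**Figure D1:**
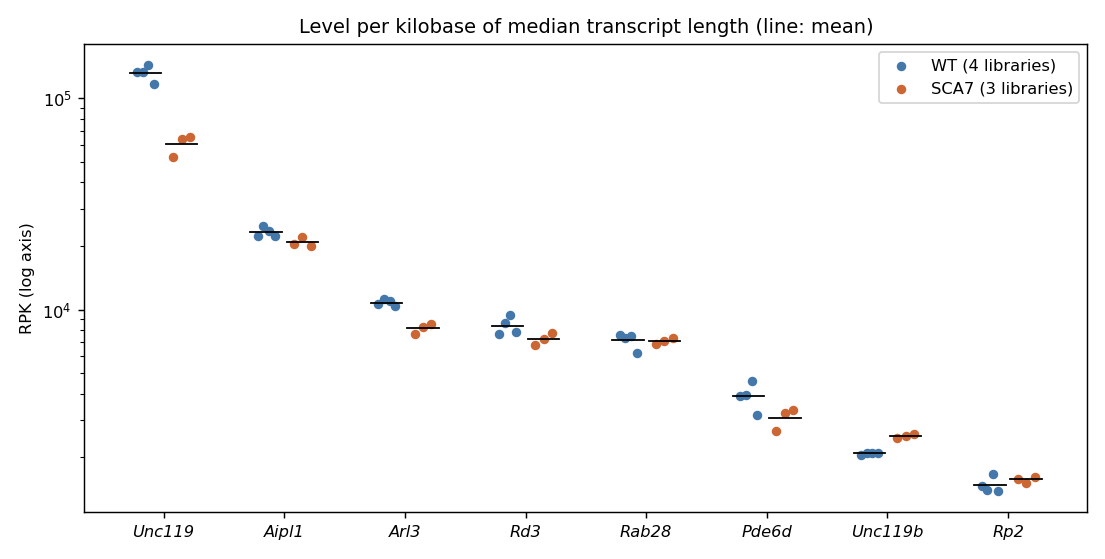
Level of each of the 8 members in RPK on a log axis, in order of the WT mean, with a point for each library (4 WT, 3 SCA7) and a line at the mean of the group. *Unc119* stands above the others in both genotypes, at 132257 RPK in WT and 60917 RPK in SCA7, and *Rp2* is the lowest.

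Among the carriers, *Unc119* (chr11:78343482-78349164, plus strand) had the largest change of the 8 members. Its levels in WT replicates 1 to 4 were 1814.5, 1800.4, 1946 and 1589.5 CPM (TMM-scaled CPM, counts scaled to a common library size), and in SCA7 replicates 1 to 3 they were 706, 863 and 879 CPM. The genotypes were far apart, the lowest WT library lying well above the highest SCA7 library. The mean was 1788 ± 147 CPM (SD, n = 4) in WT and fell to 816 ± 95.9 CPM (SD, n = 3), an FC of 0.457 (95% confidence interval 0.394 to 0.530). The log2 fold change was -1.13 with a standard error of 0.098 (adjusted p = 5.9e-06).

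*Unc119b* (chr5:115122550-115134975, minus strand), the close relative that is used in the cilia of many tissues, went the other way. It measured 36.3, 36.9, 37.1 and 37.0 CPM in WT and 42.9, 44.3 and 44.7 CPM in SCA7. Each genotype was tight and the groups did not overlap. The log2 fold change was 0.26 with a standard error of 0.053 (FC 1.19, adjusted p = 0.0036), so the rise was small and under the FC limit of 1.3. With library totals in place of TMM the log2 fold change was 0.45 (adjusted p = 0.00013), which is over that limit. In CPM the gain of *Unc119b* was a very small amount beside the loss of *Unc119*.

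*Pde6d* (chr1:86542994-86582629, minus strand), the prenyl carrier, lay at 65.8, 66.1, 77.6 and 53.2 CPM in WT and at 44.0, 54.1 and 55.6 CPM in SCA7. WT replicate 4 fell within the SCA7 range, so the groups overlapped. The log2 fold change of -0.36 (standard error 0.12, 95% confidence interval -0.63 to -0.09) missed the threshold at an adjusted p of 0.052. The call turned on several choices: the adjusted p was 0.0042 without WT replicate 4 (log2 fold change -0.45), 0.021 in the Wald test of DESeq2 and 0.047 with a filter of at least 10 counts in every library. With the replicate number as a block, which also takes WT replicate 4 out of the contrast, it was 7.1e-08 (log2 fold change -0.45). It was 0.18 without SCA7 replicate 1 (log2 fold change -0.26) and 0.22 with library totals in place of TMM (log2 fold change -0.16).

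**Figure D2:**
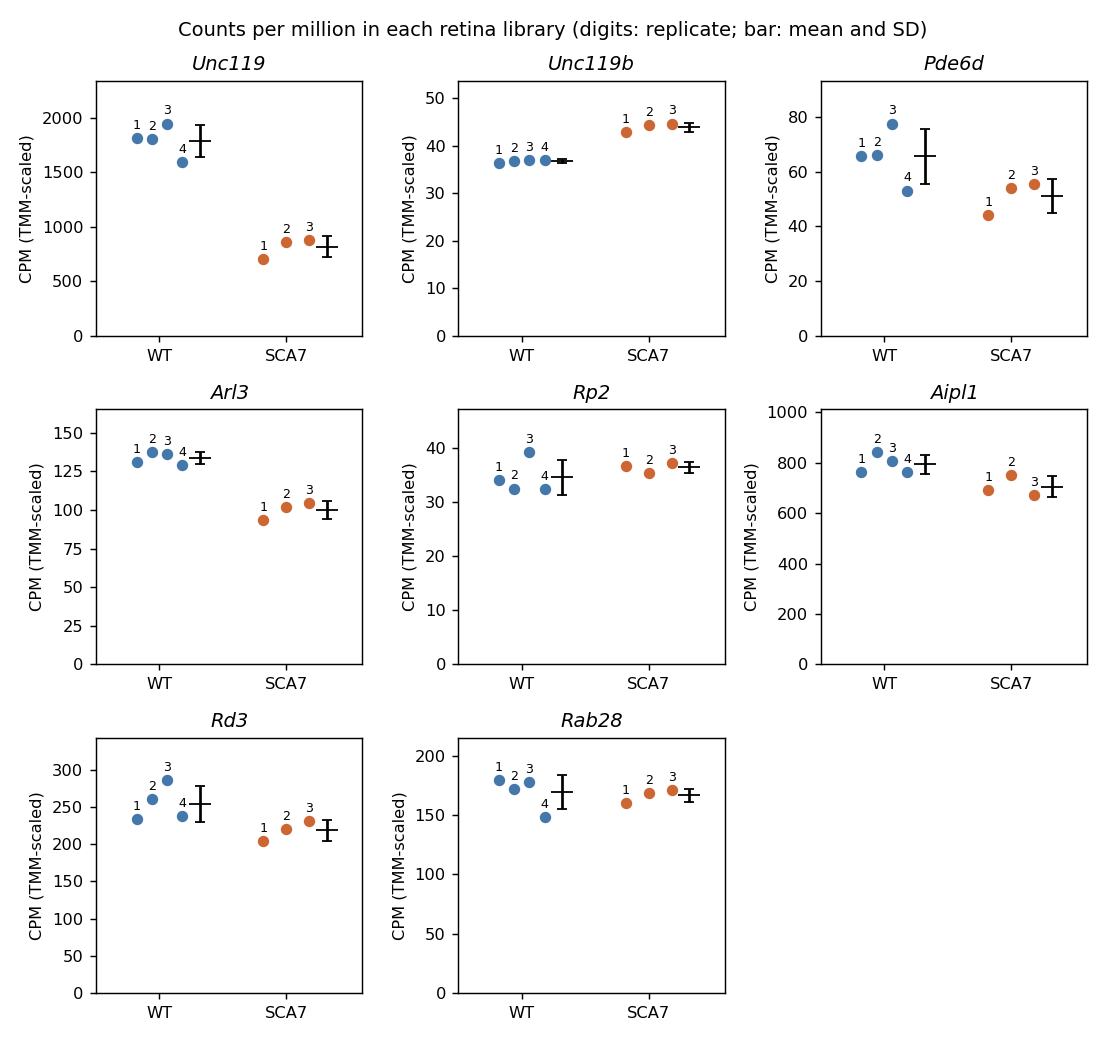
CPM (TMM-scaled, linear axes from 0) of the 8 members in each library, with the replicate number beside each point and the mean with its SD to the right of the 4 WT and 3 SCA7 points. *Unc119* and *Arl3* are lower and *Unc119b* is higher in every SCA7 library than in any WT library, and WT replicate 4 is the lowest WT library for *Unc119*, *Pde6d*, *Arl3*, *Rp2* and *Rab28*.

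Of the release switch, the GTPase fell, and the GTPase-activating protein did not pass the test. *Arl3* (chr19:46531096-46573198, minus strand) measured 131, 138, 136 and 129 CPM in WT and 93.6, 102 and 105 CPM in SCA7. The groups did not overlap, and the log2 fold change was -0.42 with a standard error of 0.061 (FC 0.750, adjusted p = 0.00036). The FC was above the limit of 0.7, so *Arl3* was lower without being counted as downregulated.

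*Rp2* (chrX:20364481-20405653, plus strand) stood at 34.1, 32.5, 39.3 and 32.5 CPM in WT and at 36.6, 35.4 and 37.3 CPM in SCA7. The SCA7 values lay inside the WT range. The log2 fold change was 0.07 (standard error 0.073, 95% confidence interval -0.08 to 0.23, adjusted p = 0.48), and with library totals in place of TMM it was 0.27 (adjusted p = 0.0047).

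The 2 chaperones had lower means in SCA7 but did not pass the test. *Aipl1* (chr11:72027963-72037509, minus strand) measured 763, 842, 806 and 764 CPM in WT and 690.4, 752 and 671 CPM in SCA7. The highest SCA7 library was just under the lowest WT library. Its log2 fold change was -0.17 (standard error 0.071, 95% confidence interval -0.33 to -0.02, adjusted p = 0.091), and it turned to 0.02 with library totals in place of TMM.

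*Rd3* (chr1:191977370-191988283, plus strand) gave 234, 261, 286 and 237 CPM in WT and 204, 220.5 and 232 CPM in SCA7. The groups came within a few CPM of each other without overlapping. The log2 fold change was -0.22 (standard error 0.081, 95% confidence interval -0.39 to -0.04, adjusted p = 0.064). It passed without WT replicate 4 (-0.25, adjusted p = 0.033) and with the replicate number as a block (-0.25, adjusted p = 0.0069). It was -0.17 without SCA7 replicate 1 (adjusted p = 0.26) and -0.02 with library totals in place of TMM (adjusted p = 0.80). An antisense gene, *Gm26670*, shares 1452 exon bases with *Rd3* on the opposite strand. Its level was 0.698 ± 0.208 CPM in WT and 0.464 ± 0.0142 CPM in SCA7 (log2 fold change -0.58, adjusted p = 0.098), far below that of *Rd3*. The libraries were stranded, but the strand setting used in counting is not given in the sources used here.

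*Rab28* (chr5:41624976-41708157, minus strand) was at 179, 172, 178 and 148 CPM in WT and at 161, 168 and 171 CPM in SCA7. All SCA7 libraries lay between the lowest WT library and the other 3. The log2 fold change was -0.02 (standard error 0.073, 95% confidence interval -0.18 to 0.14, adjusted p = 0.84), and its sign changed with the scaling and with single libraries left out.

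Genes of lipidated proteins and of clients of the chaperones were then examined, as a list of 15 genes chosen by role. Whether each of these proteins depends on a member was not tested. Of these, 14 were lower in SCA7, 13 of them downregulated, 0 were higher, and the median log2 fold change was -1.05. The acylated transducin alpha subunits fell most, *Gnat2* of cones by 1.82 and *Gnat1* of rods by 1.76 on the log2 scale. The acylated calcium sensors *Guca1b*, *Guca1a* and *Rcvrn* fell by 1.65, 1.05 and 0.78.

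Of the prenylated proteins, the PDE6 catalytic subunits *Pde6c*, *Pde6b* and *Pde6a* had log2 fold changes of -1.31, -1.17 and -0.67. The farnesylated transducin gamma subunits *Gngt2* and *Gngt1* had -1.22 and -1.07, and the kinase gene *Grk1* had -0.95. The guanylate cyclases bound by RD3, which are membrane proteins rather than lipidated cargo, had -0.79 (*Gucy2f*) and -0.68 (*Gucy2e*). The cargo genes used in cilia well beyond photoreceptors had the smallest changes. *Cys1* had a log2 fold change of -0.38 (adjusted p = 0.033) and *Inpp5e*, a lipid phosphatase of the cilium, one of 0.18 (adjusted p = 0.11).

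Photoreceptor markers were lower as well. All 8 rod markers were lower (median log2 fold change -0.92), with summed levels of 18167 to 19360 CPM in WT and 7645 to 9180 CPM in SCA7. All 7 cone markers were also lower (median -2.50, summed levels 1068 to 1269 CPM in WT and 101 to 138 CPM in SCA7). Markers of other neurons were lower in part: 6 of 8 bipolar markers (median -0.30), 3 of 6 amacrine markers (median -0.34) and 1 of 7 ganglion cell markers (median -0.11) passed, and 0 markers of these 3 lists were higher. Of 7 Müller glia markers, 1 was lower and 3 were higher (median 0.18). All 8 microglia markers were higher, with a median of 0.93, and so were 5 of 6 markers of reactive glia, with a median of 2.57. In bulk retina, fewer cells of a type and less RNA per cell cannot be told apart, and the part of these marker changes in the changes of the members was not tested.

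Ratios within a library do not depend on library scaling and set each member beside the protein it serves or opposes. For 7 pairs, log2 ratios of counts were compared between genotypes by an exact two-sided permutation test (on the size of the difference of group means) over the 35 ways to assign the 7 libraries, which allow no p below 0.0286, with Benjamini-Hochberg adjustment over the 8 pairs computed. Of the 7, 4 had an adjusted p of 0.0457. Adjusted over the 7 pairs given here alone, the same 4 had 0.05, at the threshold and not under it. In 5 of the 7 pairs the second gene was itself downregulated, so a higher ratio there is no rise of the member.

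The level of *Unc119* relative to its cargo *Gnat1* was higher in SCA7 although both genes fell. The log2 ratio was -2.47, -2.51, -2.34 and -2.75 in WT and -1.83, -1.85 and -1.97 in SCA7, a difference of 0.64 (p = 0.0286, adjusted p = 0.0457, exact permutation test). Every SCA7 library had more *Unc119* per *Gnat1* count than every WT library. For *Aipl1* over its client *Pde6b* the log2 ratio was -2.08, -2.01, -1.87 and -2.03 in WT and -0.88, -0.996 and -1.12 in SCA7. The difference of 1.00 (p = 0.0286, adjusted p = 0.0457, exact permutation test) was the largest of the carrier and chaperone pairs with a client gene. *Pde6b* fell, and *Aipl1* did not pass the test.

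*Pde6d* relative to its cargo *Pde6b* differed by 0.82 on the log2 scale and relative to *Grk1* by 0.59, and *Rd3* relative to *Gucy2e* by 0.46. These 3 differences had a p and an adjusted p of 0.0571 in the exact permutation test and did not pass, although the ratios of the SCA7 and WT libraries did not overlap. In each, WT replicate 3 had the highest ratio of the 4 WT libraries, and for *Rd3* over *Gucy2e* it came close to the SCA7 libraries, with a log2 ratio of -0.20 against -0.14, -0.15 and -0.11.

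Between the 2 acyl carriers, the log2 ratio of *Unc119* to *Unc119b* was 5.64, 5.61, 5.71 and 5.42 in WT and 4.04, 4.28 and 4.3 in SCA7. The ratio was lower in each SCA7 library, by 1.39 in the mean (p = 0.0286, adjusted p = 0.0457, exact permutation test). *Arl3* relative to *Rp2*, its inactivator, had log2 ratios of 1.94, 2.08, 1.79 and 1.99 in WT and of 1.35, 1.53 and 1.49 in SCA7. The groups did not overlap, and the mean was lower in SCA7 by 0.49 (p = 0.0286, adjusted p = 0.0457, exact permutation test).

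**Figure D3:**
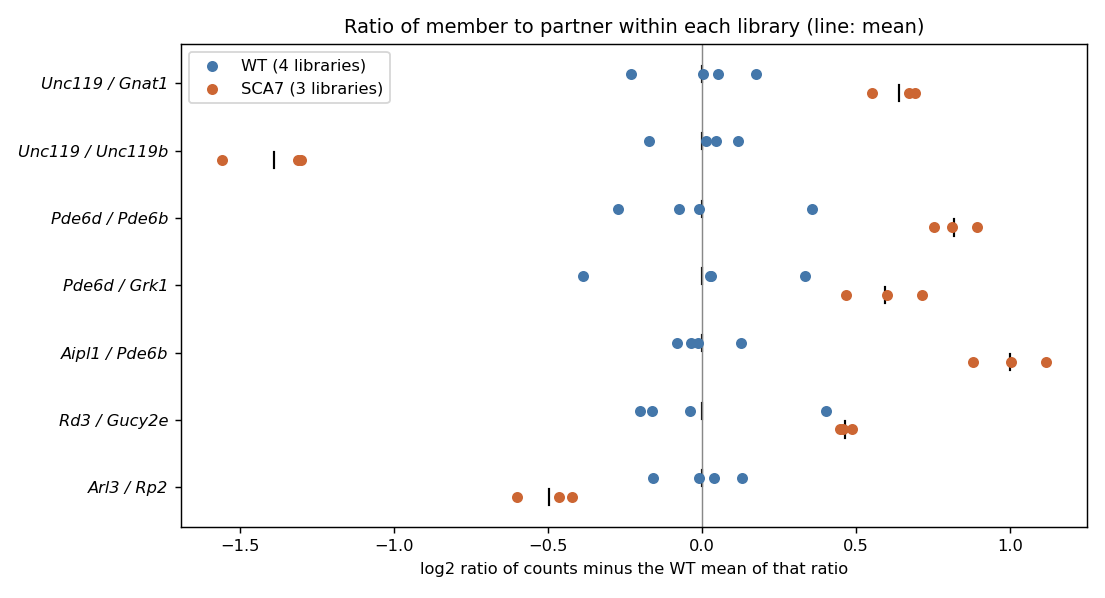
Log2 ratio of counts of the first to the second gene of each of 7 pairs, less the WT mean of that ratio, with a point for each library (4 WT, 3 SCA7) and a line at the mean of the group. *Unc119* over *Unc119b* (-1.39) and *Arl3* over *Rp2* (-0.49) lie to the left in SCA7 and the other 5 pairs to the right, up to 1.00 for *Aipl1* over *Pde6b*.

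Among the lists of genes acting before or beside the members, the counts called were small and were not far from the background of 14.2% in each direction. Among 12 enzymes that attach or process lipid groups, 2 were lower and 3 were higher at an adjusted p under 0.05, and the median log2 fold change was 0.03. The largest change was that of *Icmt*, which methylates the prenylated end of a protein, with a log2 fold change of -0.44 (613 ± 50.4 CPM in WT and 453 ± 11.0 CPM in SCA7, adjusted p = 0.0012). *Pggt1b*, a subunit of the enzyme that attaches geranylgeranyl groups to CaaX proteins, rose by 0.31 (adjusted p = 0.010), and *Zmpste24*, a protease that acts on prenylated prelamin, rose by 0.26 (adjusted p = 0.013). Without SCA7 replicate 1, 1 of the 12 was lower and 0 were higher, and 1 was also the number lower without SCA7 replicate 2, SCA7 replicate 3, WT replicate 1 or WT replicate 2.

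Of 7 other carriers of prenylated proteins, which hold prenylated small GTPases, 0 were lower and 1 was higher, and the median log2 fold change was 0.03. The gene that rose was *Arhgdia*, with a log2 fold change of 0.23 (adjusted p = 0.010).

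In a mixed list of 12 genes, made up of further ARL family members, a few partners and relatives of the regulators and chaperones, and *Impdh1*, 3 were lower and 1 was higher, with a median log2 fold change of 0.01. *Arl6*, the GTPase that recruits the BBSome coat, was upregulated, with 231 ± 21.7 CPM in WT and 373 ± 33.1 CPM in SCA7 (log2 fold change 0.69, adjusted p = 1e-04). *Arl13a*, at about 1 CPM in WT, had a log2 fold change of -0.87 (adjusted p = 0.0019), and *Impdh1*, an enzyme of guanine nucleotide synthesis and no ARL gene, one of -0.85 (adjusted p = 1.4e-05). Without WT replicate 3, 4 genes of this list were higher instead of 1.

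**Figure D4:**
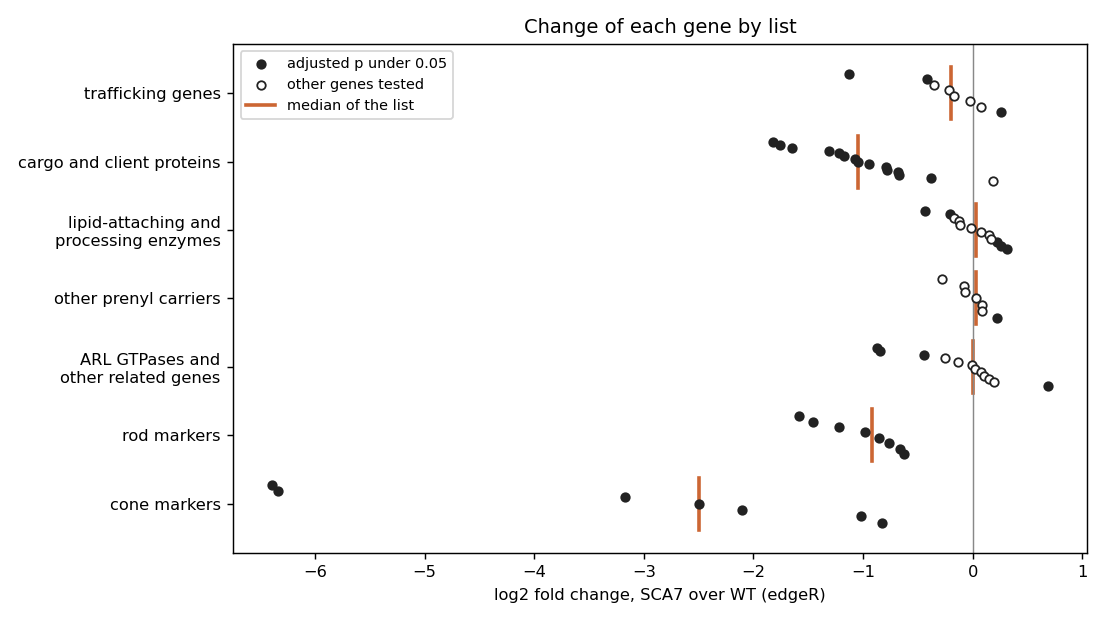
Log2 fold change (SCA7 over WT, edgeR) of each gene tested in the 8 trafficking genes, the 15 cargo and client genes, 3 lists of related genes and the rod and cone markers, filled where the adjusted p was under 0.05, with a line at the median of each list. The median of the trafficking genes (-0.19) lies between that of the cargo and client genes (-1.05) and those of the 3 related lists (0.03, 0.03 and 0.01), while single genes reach past them, from *Unc119* at -1.13 to *Unc119b* at 0.26.

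For the 3 members that changed, the protein-coding genes with the most similar log2 CPM over the 7 libraries were looked up among the 9854 whose mean reached 10 CPM. *Unc119* was closest to *Rims2* and *Lrit3* (Pearson r = 0.9987 for each), and *Arl3* to *Rdh12* (r = 0.9985) and *Vtn* (r = 0.9975). *Unc119b* was closest to *Ppp1r9a* (r = 0.996) and *Gnb2* (r = 0.9959). The 7 libraries fall into 2 genotypes, and any gene with a steady difference between them has a high r, so these values describe likeness over these libraries only.

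*Atxn7* itself, the gene carrying the knock-in, was expressed at 39.2 ± 4.26 CPM in the WT group against 37.6 ± 2.99 CPM in the SCA7 group (log2 fold change -0.06, adjusted p = 0.64), so its level does not check the genotype labels. Among markers of tissue next to the retina, 4 of 7 pigment epithelium markers were lower in SCA7 (summed levels 108 to 218 CPM in WT and 21.6 to 51.2 CPM in SCA7), and lens markers ranged from 59.9 to 760.4 CPM in WT and from 43.6 to 1236 CPM in SCA7, with 0 of 5 tested called.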

How the data were processed

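Total RNA of both retinas of each mouse was made into stranded libraries after removal of ribosomal RNA. According to the submitters' processing notes and the study's methods, the authors mapped the reads to mm10 with TopHat2 2.0.14 and Bowtie2 2.1.0, counted reads per Ensembl gene with HTSeq 0.6.1 and deposited raw counts without normalization. Gene names, positions and transcript lengths came from GENCODE vM21 on the same assembly (52403 of 52550 genes), and promoter windows from RefSeq (GRCm38.p6). The bases after the start were found in a GENCODE transcript of the same gene for 8 of the 11 member windows.

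The 20128 genes kept by filterByExpr were scaled by TMM and compared by the quasi-likelihood test of edgeR 4.0.16 (robust, no covariate, all 7 libraries), p-values being adjusted over these genes by the Benjamini-Hochberg method, in R 4.3.3. Members and gene lists were chosen with earlier results of these data known. Named are all members, the cargo genes, up to 3 called genes per related list, and the 2 genes most like each changed member. RPK used DESeq2 1.42.0 size factors. The exact permutation tests used scipy 1.17.1. Confidence intervals of fold changes are at 95%. The edgeR step was tested on simulated data, in which unchanged genes made up a larger share of the calls than the nominal rate, so adjusted p-values close to the threshold are less certain than they read. Alternatives were other scalings, filters and tests (DESeq2, limma 3.58.1), a stricter threshold, the replicate number as a block, each library left out, and for levels another length. Protein sequences were not analysed here. The results of 1 further member, of 1 pair and of 2 genes of the related lists are not reported here.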

Additional observations from a re-analysis of the deposited data

How the results depend on the processing

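*Unc119*, *Unc119b* and *Arl3* kept direction and significance in 15 of 15 alternatives, with log2 fold changes of -1.19 to -0.94, 0.24 to 0.45 and -0.45 to -0.23. *Pde6d* passed in 4 of them (DESeq2, the filter of at least 10 counts, the block, and without WT replicate 4), *Rd3* in 2 and *Rp2* in 1, and *Aipl1* and *Rab28* in none. The part of depth and of the number of mice in the calls missed was not tested.

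With library totals in place of TMM, the numbers of genes lower, higher, downregulated and upregulated were 1495, 7296, 978 and 3681, and among the members 2 were higher and 1 upregulated. Higher genes then numbered 1 of the cargo list, 7 of the enzymes (1 lower), 4 of the other prenyl carriers and 7 of the mixed ARL list. *Aipl1* turned to 0.019 and *Rab28* to 0.17 on the log2 scale. At an adjusted p under 0.01, 1580 genes were lower and 1608 higher, 1 enzyme was lower and 0 were higher, and 0 other prenyl carriers were higher. With DESeq2 size factors or without the filter 1 enzyme was lower, and 2 genes of the ARL list were higher in the DESeq2 test.

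With libraries left out in turn, all genes lower ranged from 1771 to 3363 and higher from 1748 to 3523. Members lower ranged from 2 to 4, cargo genes higher from 0 to 1, enzymes lower from 1 to 3 and higher from 0 to 4, and genes of the ARL list higher from 1 to 4. *Rab28* had log2 fold changes of -0.0832 to 0.0049, above 0 without SCA7 replicate 1 (0.0049), WT replicate 1 (0.0038) or WT replicate 3 (0.0006). With 6 libraries the exact permutation test of the ratios cannot reach a p under 0.05, so these are given by direction, which held for all 7 pairs.

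Libraries with the same replicate number deviated together with r of 0.005, 0.204 and 0.0893, and those with different numbers with r of -0.208 to 0.141. The animal numbers in the sample titles were close within a replicate number. These r values cannot settle whether those mice were paired, since they rest on few libraries. In the fit with the replicate block, 4 members were lower (*Pde6d* at an adjusted p of 7.1e-08 and *Rd3* at 0.0069 in addition), 1 cargo gene was higher and 5 genes of the ARL list were lower. Replicate number 4 occurs only in WT, so this fit also takes WT replicate 4 out of the contrast. With that library left out and no block, 4 members were lower as well. The cause was not tested for any of these changes.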
